A study of Mus musculus with 6 samples.

Results

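The let-7 family guide strands are 9 mature miRNAs of the mouse, let-7a, let-7b, let-7c, let-7d, let-7e, let-7f, let-7g, let-7i and miR-98, each from the 5′ arm of its precursor. They were selected by name (mmu-let-7a-5p, mmu-let-7b-5p, mmu-let-7c-5p, mmu-let-7d-5p, mmu-let-7e-5p, mmu-let-7f-5p, mmu-let-7g-5p, mmu-let-7i-5p and mmu-miR-98-5p) from the 1831 miRNAs of a deposited microarray table, and all 9 were present. The table came from the small intestinal mucosa of 3 Cdr1as-/- mice and 3 wild-type littermates on the C57BL/6J background, with 1 single-colour array per mouse. In Cdr1as-/- mice the locus of Cdr1as, a circular RNA, had been deleted by CRISPR/Cas9, a deletion present in every cell of the animal. No treatment set the groups apart, mice of both groups went without food for a day before tissue was taken according to the study's methods, and the ages of the individual mice were not given in the sources used here. The comparison of the genotypes asks which miRNAs change in the mucosa when this circular RNA is lost.

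miRNAs guide Argonaute proteins to messenger RNAs, which are then repressed, and targets are recognised mainly through the seed, bases 2 to 8 of the guide strand. The let-7 family is defined by a shared seed, is made from several genes on different chromosomes, and is known for its abundance in differentiated tissue and for repressing genes of proliferation and growth. The RNA-binding protein LIN28 binds let-7 precursors and blocks their processing by Dicer. The strand opposite the guide in the precursor, the passenger or 3p strand, is usually degraded.

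The mature sequences are shown because they define the family and show how few bases separate its members, which matters for what the array probes could tell apart. They were read from RefSeq (GRCm38.p6), were 22 bases long for every member, and were identical to the sequence in the deposited table for 9 of 9 members. Capitals mark the seed.
let-7a-5p: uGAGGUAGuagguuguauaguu
let-7b-5p: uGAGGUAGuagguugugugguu
let-7c-5p: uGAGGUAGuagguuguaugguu
let-7d-5p: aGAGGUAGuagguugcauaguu
let-7e-5p: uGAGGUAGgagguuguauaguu
let-7f-5p: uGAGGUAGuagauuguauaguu
let-7g-5p: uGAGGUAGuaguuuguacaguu
let-7i-5p: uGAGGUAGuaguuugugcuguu
miR-98-5p: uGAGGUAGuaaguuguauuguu

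Counting from the 5′ end and with let-7a-5p as the reference, let-7c differed by A19G, let-7e by U9G and let-7f by G12A. Of the members with 2 differences, let-7b carried A17G and A19G, let-7d U1A and U16C, let-7g G12U and U18C, and miR-98 G11A and A19U. let-7i carried G12U, A17G, U18C and A19U. Over the 36 pairs of members, the sequences differed at 1 to 6 positions, and none of the differences lay in the seed. Which of these differences the array probes resolve was not tested.

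The guide strands lie in microRNA genes on 7 chromosomes of GRCm38.p6. Mirlet7a-1 (guide strand at chr13:48538239-48538260), Mirlet7f-1 (chr13:48537889-48537910) and Mirlet7d (chr13:48536078-48536099) form a cluster on the minus strand. Mirlet7c-2 (chr15:85706616-85706637) and Mirlet7b (chr15:85707325-85707346) are neighbours on the plus strand, as are Mirlet7f-2 (chrX:151912353-151912374) and Mir98 (chrX:151913229-151913250). Mirlet7c-1 (chr16:77599672-77599693) and Mirlet7e (chr17:17830366-17830387) lie on plus strands beside genes of the miR-99 and miR-125 families. Mirlet7g lies at chr9:106178846-106178867 on the plus strand and Mirlet7i at chr10:122985698-122985719 on the minus strand. A further gene of let-7a, Mirlet7a-2, was not placed here, so the let-7a signal is not a readout of the chromosome 13 cluster alone. The array reads mature strands, so the 2 genes of let-7c, and likewise the 2 of let-7f, could not be told apart.

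The array of littermate 3 stood apart from the other 5. The median processed signal of its miRNA probes, which is the spot brightness after subtraction of the local background and before any scaling between arrays, was 236, whereas the other arrays lay between 8.75 and 29.2. The array of Cdr1as-/- mouse 1 had the next highest median. Values that rest on littermate 3 are given with and without it. Slide 1 held the arrays of all 3 littermates together with Cdr1as-/- mouse 1, whereas slide 2 held those of Cdr1as-/- mice 2 and 3. Epithelial marker miRNAs, among them miR-192-5p, miR-194-5p and the miR-200 family, were all present in the table, and 9 of 9 were bright enough to be tested. So were 1546 of the 1831 miRNAs in the table and 6 of 6 immune markers.

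let-7 guide strands were detected on every array, and they ranked lower among the miRNAs tested in littermate 3 than in the other mice. Each member was measured by 5 probes, and 269 of the 270 spots of the 45 probes were well above background. The exception was 1 miR-98 spot of Cdr1as-/- mouse 2. No spot was saturated. Over all miRNA probes of the array, the share well above background was 66.8%, 84.7% and 100% in littermates 1 to 3. It was 96.8%, 41.5% and 79.3% in Cdr1as-/- mice 1 to 3. Among the 1546 miRNAs tested, which were those detected above background throughout at least 1 genotype, let-7a had the 10th to 12th brightest unscaled signal in 5 mice and the 131st in littermate 3. miR-98, the dimmest member, was 97th to 309th in the same 5 mice and 910th in littermate 3. In littermate 3 its unscaled signal of 292 was below the median of the tested miRNAs, 396.

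Before any scaling between arrays, the let-7 signal differed little between mice. The mean processed signal of the let-7a probes was 4796, 5656 and 4894 in littermates 1 to 3 against 6454, 6004 and 3587 in Cdr1as-/- mice 1 to 3, the order in which all values below are given. The signal of let-7f, which shares a cluster with let-7a, was 4050, 4670 and 3580 in littermates and 5459, 4743 and 2683 in Cdr1as-/- mice. That of let-7d, from the same cluster, was 2859, 3182 and 2805 against 3858, 3344 and 2063. In all 3 members of the chromosome 13 cluster, Cdr1as-/- mouse 1 had the highest signal and Cdr1as-/- mouse 3 the lowest, with littermates between them.

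The signal of let-7c was 4078, 4256 and 4282 in littermates and 5132, 4620 and 3282 in Cdr1as-/- mice. That of let-7b, its neighbour on chromosome 15, was 1786, 1726 and 2018 against 2251, 2014 and 1426. Both had their brightest and dimmest array among the Cdr1as-/- mice, so the groups overlapped. The signal of let-7g was 2231, 2726 and 2054 in littermates and 2992, 2557 and 1871 in Cdr1as-/- mice. That of let-7i was 690, 958 and 964 against 1211, 946 and 657, and that of let-7e 768, 849 and 800 against 1054, 964 and 532. For miR-98, whose gene lies beside a let-7f gene on the X chromosome, the signal was 194, 238 and 292 in littermates and 266, 246 and 143 in Cdr1as-/- mice. miR-98 was the member whose brightest array was littermate 3. For the other 8 members it was Cdr1as-/- mouse 1, against 2.13% of the 1546 miRNAs tested. Littermate 3 was the brightest array for most miRNAs, and among the 5 mice without it Cdr1as-/- mouse 1 had the highest signal for 9 of 9 members and for 96.8% of the miRNAs tested. Cdr1as-/- mouse 3 had the lowest signal for 9 of 9 members, against 23.3% of the miRNAs tested, or 23.7% among the 5 mice without littermate 3.

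**Figure D1:**
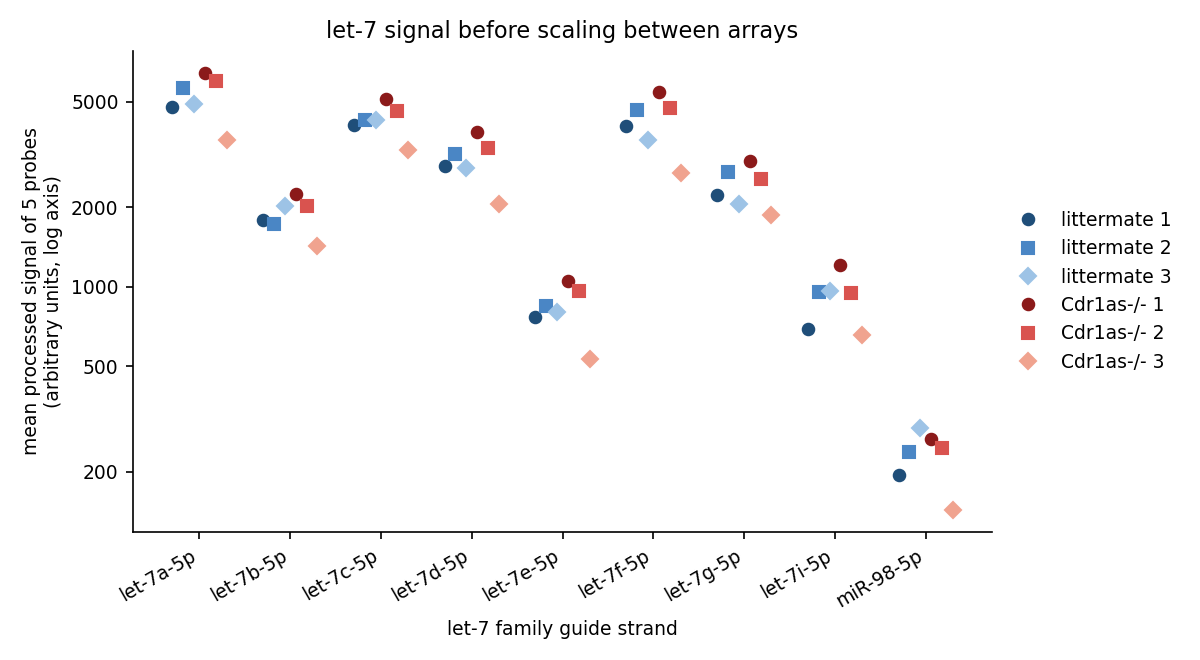
Mean processed signal of the 5 probes of each let-7 guide strand before scaling between arrays (arbitrary units, log axis), with 1 point per mouse, littermates in blue and Cdr1as-/- mice in red. Every member varied by no more than 2.04-fold over the 6 mice, and littermate 3 lay among the others for 8 members and highest for miR-98.

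The highest signal was 1.56 to 2.04 times the lowest over the 6 arrays for the 9 members (median 1.84), whereas the median of that ratio over the 1546 miRNAs tested was 36.5. Without littermate 3 the members again ranged from 1.56 to 2.03, and the median over all miRNAs tested was 3.91. The ratio was under 2.5-fold, a limit chosen after the values were seen, for 9 of 9 members and for 4.59% of all miRNAs tested, and without littermate 3 for 9 of 9 members and 25.2%. The members were not alone in this, since 62 other miRNAs were under the limit on all 6 arrays. The 9 epithelial markers had ratios of 1.30 to 2.84 with a median of 1.46, and 8 of them varied less than any let-7 member. The summed let-7 signal was 21452, 24261 and 21690 in littermates and 28677, 25438 and 16243 in Cdr1as-/- mice. The median unscaled signal of the tested miRNAs was 12.5, 16.2 and 396 in littermates and 46.2, 20.1 and 16.9 in Cdr1as-/- mice, and let-7 made up 6.27%, 6.85% and 0.728% of the signal of all miRNAs in littermates and 4.75%, 7.03% and 5.48% in Cdr1as-/- mice. In bulk mucosa, fewer cells of a type and less RNA per cell cannot be told apart.

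The normalized levels deposited by the authors, on a log2 scale, showed another picture. The level of let-7a was 12.66, 12.73 and 9.42 in littermates and 12.42, 12.88 and 12.28 in Cdr1as-/- mice. The level of let-7f was 12.45, 12.47 and 8.72 against 12.17, 12.58 and 11.89, and that of let-7d was 12.08, 12.03 and 8.15 against 11.63, 12.12 and 11.60. Littermates 1 and 2 were nearly equal in each of these members, and littermate 3 was far below every other mouse.

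The level of let-7c was 12.54, 12.41 and 8.94 in littermates and 12.08, 12.55 and 12.21 in Cdr1as-/- mice. The level of let-7b was 11.54, 11.29 and 7.56 against 10.71, 11.48 and 11.09, and that of let-7g was 11.81, 11.82 and 7.54 against 11.22, 11.78 and 11.43. Here too Cdr1as-/- mouse 2 lay near littermates 1 and 2, and Cdr1as-/- mice 1 and 3 lay below them. The level of let-7e was 10.41, 10.33 and 6.08 in littermates and 9.48, 10.50 and 9.75 in Cdr1as-/- mice. That of let-7i was 10.34, 10.55 and 6.32 against 9.58, 10.50 and 10.05, and that of miR-98 was 8.83, 8.91 and 4.76 against 7.12, 8.83 and 7.91. miR-98 had the widest spread among the Cdr1as-/- mice, with a mean of 7.95 ± 0.85 (SD, n = 3), compared with 12.28 ± 0.25 for let-7c.

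**Figure D2:**
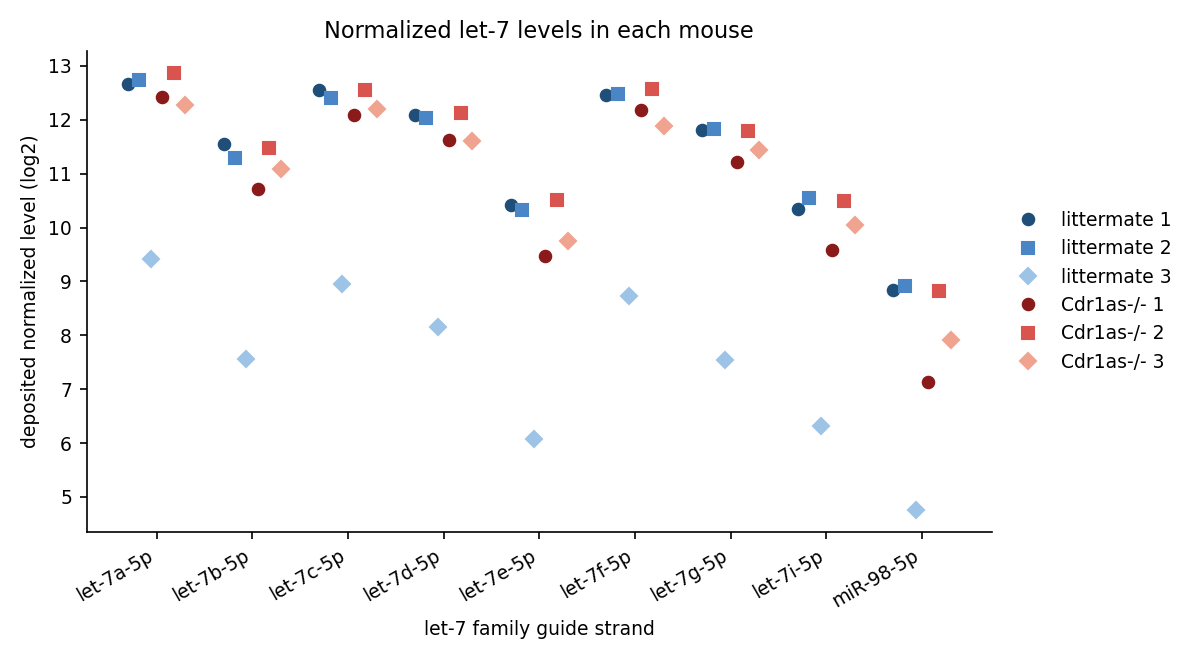
Deposited normalized level (log2) of each let-7 guide strand, with 1 point per mouse, littermates in blue and Cdr1as-/- mice in red. Littermate 3 was the lowest of the 6 mice for every member, and Cdr1as-/- mice 1 and 3 lay below littermates 1 and 2.

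The 9 members moved together from mouse to mouse on this scale. Relative to the mean of littermates 1 and 2, the members had a median difference of -3.91 in littermate 3, with a range from -4.29 to -3.27. Littermate 3 was below both of these littermates for 9 of 9 members, against 33.8% of the miRNAs tested, and was the lowest of the 6 mice for 9 of 9 members, against 25.7% of all miRNAs tested. In Cdr1as-/- mouse 1 the median was -0.59 (-1.75 to -0.27), and all 9 members lay below both of these littermates, against 37.4% of miRNAs tested. In Cdr1as-/- mouse 3 it was -0.42 (-0.96 to -0.27), with 9 of 9 below both against 41.5%. Both of these Cdr1as-/- mice were below for 9 of 9 members and for 31.8% of the miRNAs tested. Cdr1as-/- mouse 2 had a median of 0.07 (-0.05 to 0.18), with 5 of 9 members above both littermates and 2 below both. The shares of the miRNAs tested were 42.2% above both and 39.3% below both. The same medians over all tested miRNAs were 0.43 in littermate 3, 0.16 and 0.02 in Cdr1as-/- mice 1 and 3, and 0.01 in Cdr1as-/- mouse 2. The members are related sequences on the same arrays and are not replicates of a genotype.

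The size of the difference was not the same for every member. In Cdr1as-/- mouse 1 it ran from -0.27 for let-7a to -1.75 for miR-98, the brightest and the dimmest of the family. Over the 45 probes, the difference in Cdr1as-/- mouse 1 rose with the level of the probe in littermates 1 and 2 (Spearman's rho 0.909 across probes of shared arrays, given as a description). It ran from -1.93 to -0.06, and the dimmest probe had the larger fall against the brightest probe of the same miRNA for 8 of 9 members. The rho was 0.520 in Cdr1as-/- mouse 3, 0.382 in Cdr1as-/- mouse 2 and 0.349 in littermate 3, where the differences ran from -4.66 to -1.12. All 45 probes were below the mean of littermates 1 and 2 in littermate 3 and in Cdr1as-/- mice 1 and 3, compared with 10 in Cdr1as-/- mouse 2. In littermate 3 the dimmest probe had the larger fall for 6 of 9 members, while the smallest fall, -1.12, was that of the dimmest miR-98 probe. On unscaled signal, the rho in Cdr1as-/- mouse 1 was -0.305, the opposite direction. It was -0.670 in littermate 3, -0.418 in Cdr1as-/- mouse 2 and -0.056 in Cdr1as-/- mouse 3. Probe brightness thus moved with the size of the normalized difference most clearly in Cdr1as-/- mouse 1. The part of probe brightness in the differences between members was not tested.

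**Figure D3:**
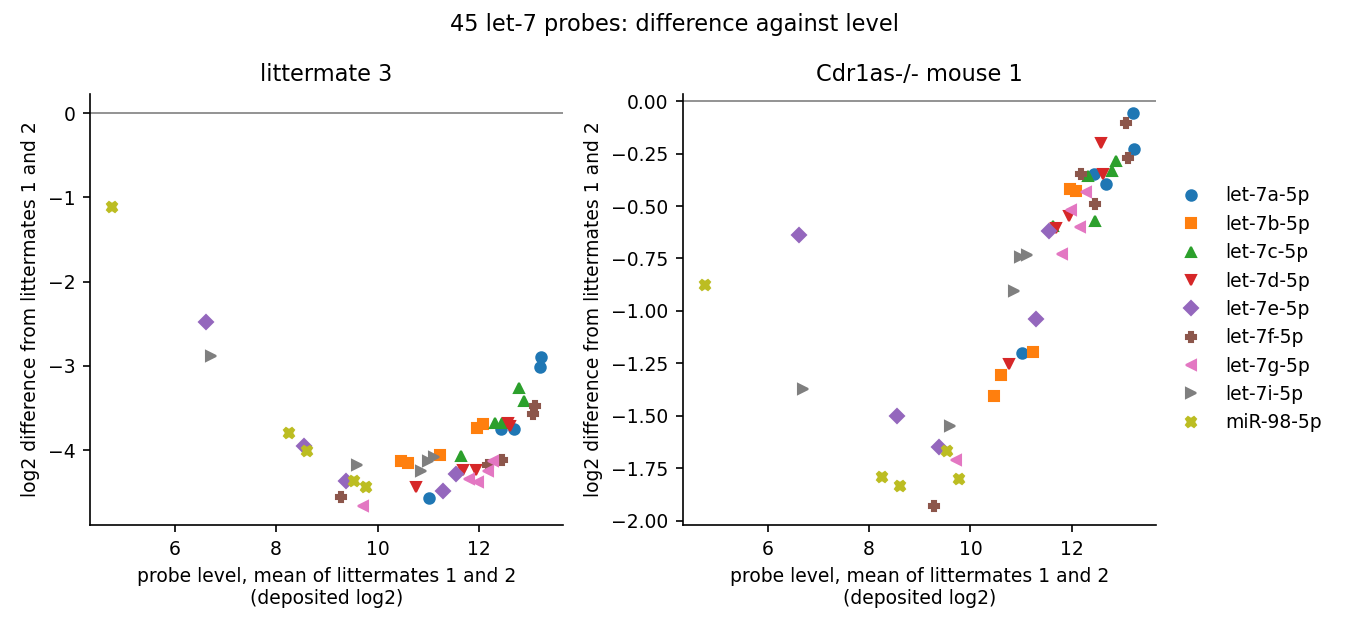
Difference of each of the 45 let-7 probes from the mean of littermates 1 and 2 (deposited log2, vertical axis) against its level in these littermates (horizontal axis), in littermate 3 and in Cdr1as-/- mouse 1, with symbols marking the 9 members. All points lie below 0, and in Cdr1as-/- mouse 1 the brighter probes lie closer to 0. The vertical axes of the panels differ.

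The order of the members by signal was nearly the same in every mouse. let-7a was the brightest, let-7d in place 4 and miR-98 in place 9 in 6 of 6 mice, on the normalized and on the unscaled scale. let-7c and let-7f exchanged places 2 and 3 between mice, and let-7e and let-7i exchanged places 7 and 8, each on both scales. let-7g was in place 5 and let-7b in place 6, except in littermate 3 on the normalized scale, where they exchanged places. This is an order of probe signals, which are not calibrated between miRNAs, and is not an order of molecule numbers. let-7a made up 22.1% to 23.6% of the summed let-7 signal in all 6 mice, let-7c 17.5% to 20.2% and let-7f 16.5% to 19.2%. miR-98 made up 0.905%, 0.982% and 1.35% in littermates and 0.927%, 0.968% and 0.882% in Cdr1as-/- mice, with the highest value in littermate 3.

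The composition of the family differed between the genotypes by less than the spread between mice. The unscaled log2 signal of each member was set against the mean of all 9 in the same mouse, and the Cdr1as-/- mean minus the littermate mean of this quantity lay between -0.18 for miR-98 and 0.07 for let-7i. Without littermate 3 it lay between -0.10 for let-7f and 0.15 for let-7i, and was -0.045 for miR-98. With all 6 mice, the 9 exact two-sided permutation tests gave p from 0.2 to 1, where 3 mice against 3 cannot give less than 0.1. For miR-98, littermates were at -3.09, -3.00 and -2.62 and Cdr1as-/- mice at -3.09, -3.02 and -3.15, so the groups overlapped.

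No let-7 guide strand passed the test for a difference between the genotypes. On the deposited values of all 6 arrays, Cdr1as-/- mice exceeded littermates by 0.45 (miR-98) to 1.09 (let-7g) on the log2 scale, with standard errors of 0.92 to 1.20 and a Benjamini-Hochberg adjusted p of 1.0 for every member in limma. Littermates had a mean level of 11.61 ± 1.89 for let-7a and Cdr1as-/- mice 12.53 ± 0.31 (SD, n = 3 each). The exact permutation p for single members was 0.8 to 1. The share of the 1546 tested miRNAs called by limma after adjustment was 0%. At an unadjusted p below 0.05 it was 0.259% lower and 0.129% higher in Cdr1as-/- mice, 6 miRNAs in all, and 0 members. The methods' t-test called 19 miRNAs at that threshold, 0 after adjustment, and 0 members at either. In 0 of 9 members were all Cdr1as-/- mice below every littermate (2.59% of the miRNAs tested) or above every littermate (0.453%).

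Without littermate 3, the direction turned for 9 of 9 members. The difference was then -0.17 ± 0.26 (SE) for let-7a, -0.20 ± 0.25 for let-7c, -0.25 ± 0.27 for let-7f and -0.27 ± 0.26 for let-7d. It was -0.32 ± 0.29 for let-7b, -0.34 ± 0.25 for let-7g, -0.40 ± 0.30 for let-7i, -0.46 ± 0.33 for let-7e and -0.92 ± 0.44 for miR-98. The 95% confidence intervals all included 0, with limits from -1.93 to 0.43 over the members. The limma adjusted p was 0.375 to 0.688, and the unadjusted p was lowest for miR-98, at 0.0691 in the limma model. The exact permutation p was 0.2 to 0.6, and 0.2 is the smallest that 3 mice against 2 allow. At an unadjusted p below 0.05, 11.7% of all tested miRNAs were lower and 1.81% higher in Cdr1as-/- mice, and 0 members were among them. All 3 Cdr1as-/- mice lay below both remaining littermates for let-7g and miR-98, 2 of 9 members, against 22.2% of the miRNAs tested, and above both for 0 members, against 21% of the miRNAs tested. The median difference over all tested miRNAs was -0.07 with 6 arrays and 0.10 without littermate 3.

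The genotype difference also depended on the scale. With unscaled signal of all 6 arrays, the Cdr1as-/- minus littermate difference lay between -0.18 (miR-98) and 0.08 over the 9 members, with a median of 0.02 on the log2 scale. The limma intervals on this scale ran from -2.80 to 2.70, since limma shares the spread of all miRNAs between them, and the exact permutation p was 0.7 to 1. On this scale all Cdr1as-/- mice lay below every littermate for 0 members (0.323% of the miRNAs tested), and without littermate 3 they lay below for 0 members (0.388%) and above for 0 members (41.9%). Scanner values scaled to the 75th percentile of each array gave 0.47 to 0.63 with 6 arrays and -1.03 to -0.81 without littermate 3. In the latter fit let-7f had an unadjusted limma p of 0.0396 and an adjusted p of 0.378, and at an unadjusted p below 0.05 the share of all miRNAs was 9.63% for lower and 2.56% for higher levels in Cdr1as-/- mice. On slide 1 alone, which held the 3 littermates and Cdr1as-/- mouse 1, the median difference of the members was 0.78, and slide 2 held no littermate.

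**Figure D4:**
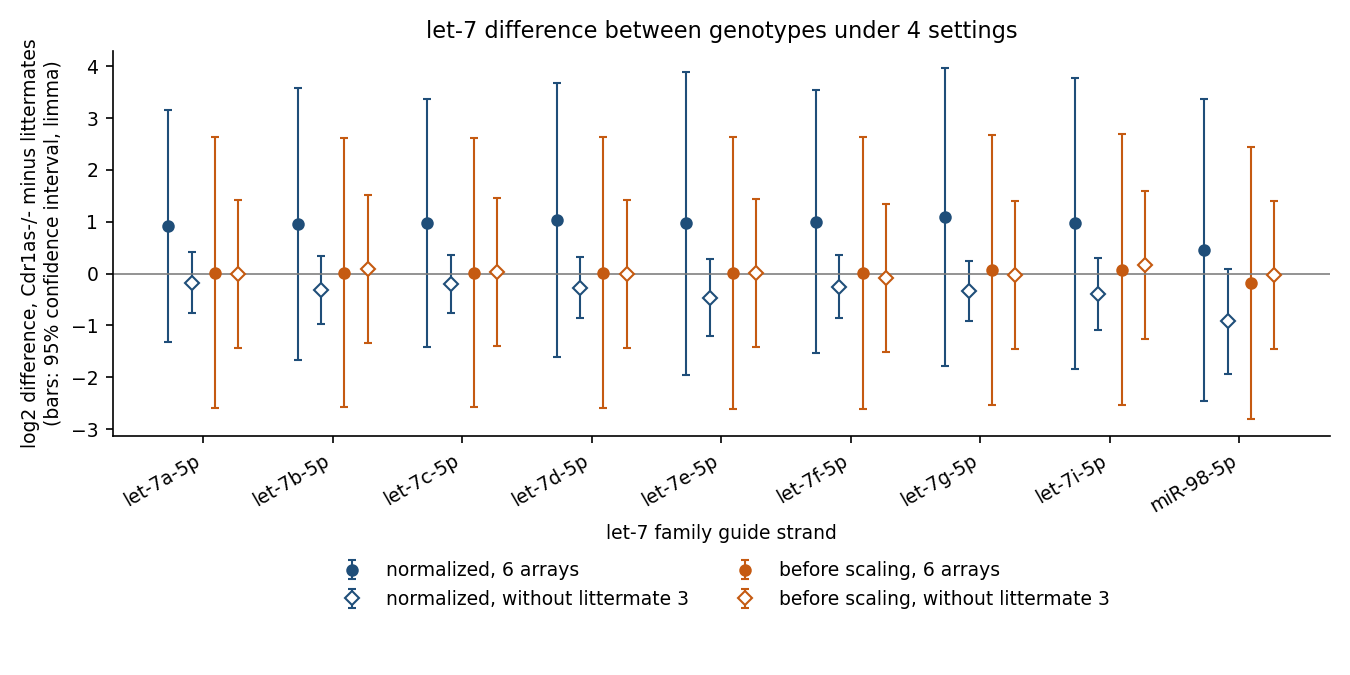
Log2 difference between Cdr1as-/- mice and littermates for each let-7 guide strand, on the deposited normalized scale (blue) and before scaling (orange), with all 6 arrays (filled circles) and without littermate 3 (open diamonds). Bars are 95% confidence intervals from limma. The normalized difference was above 0 with 6 arrays and below 0 without littermate 3, and every interval included 0.

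The let-7 passenger strands followed another course. Of 12 passenger strands, 11 were in the table and 9 were tested. On the normalized scale their median difference from littermates 1 and 2 was -1.57 in littermate 3, smaller in size than that of the guides, and -1.03, -0.65 and -0.67 in Cdr1as-/- mice 1, 2 and 3. When littermate 3 was left out, all 3 Cdr1as-/- mice lay below both littermates for 7 of 9 passenger strands, against the 22.2% given above, and 5 of 9 had an unadjusted limma p below 0.05, against 11.7% of all miRNAs. None passed adjustment, nor had any an unadjusted p below 0.05 with all 6 arrays. With 6 arrays the largest differences were those of let-7a-2-3p (-0.29 ± 0.25, SE) and let-7b-3p (-0.29 ± 0.49). Without littermate 3 the largest, named after their values were seen, was that of let-7a-1-3p, at 7.13, 6.93 and 4.04 in littermates and 5.30, 6.38 and 6.0 in Cdr1as-/- mice, a difference of -1.14 ± 0.33 (limma adjusted p = 0.239). The next was let-7c-1-3p, at 6.42, 6.35 and 3.59 against 4.79, 5.52 and 5.51, a difference of -1.11 ± 0.29. With littermate 3 these differences were -0.14 and -0.18. The passenger strands were dim. let-7a-1-3p had an unscaled signal of 48.6, 50.4 and 150 in littermates and 57.6, 44.6 and 35.3 in Cdr1as-/- mice, and on that scale no passenger strand had all Cdr1as-/- mice below littermates 1 and 2. Whether the passenger strands differed from the guides in their response to the genotype was not tested.

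Other miRNAs that carry the let-7 name or seed did not share its course as a group. The seed was found in 11 miRNAs of the deposited table, of which 2 lie outside the 9 members, let-7k and miR-1961, while let-7j, named for the family, has another seed.
let-7j: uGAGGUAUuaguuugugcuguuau
let-7k: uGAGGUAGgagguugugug
miR-1961: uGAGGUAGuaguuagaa
The deposited table marks none of these 3 as high confidence. let-7j, with 7.27, 7.30 and 3.85 in littermates and 5.72, 7.10 and 6.50 in Cdr1as-/- mice, was below littermates 1 and 2 in littermate 3 and in all 3 Cdr1as-/- mice, by the least in Cdr1as-/- mouse 2. let-7k did not, at 7.19, 7.29 and 7.39 in littermates and 7.67, 7.31 and 7.51 in Cdr1as-/- mice. miR-1961 was at 4.60, 4.75 and 5.12 against 4.55, 4.74 and 4.27. In unscaled signal, let-7k rose from 50.5 and 64.3 in littermates 1 and 2 to 1982 in littermate 3, whose summed let-7 guide signal lay among that of the other mice.

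The cluster partners, miR-99a, miR-99b, miR-100, miR-125a and miR-125b, are transcribed with let-7 genes and were all tested. Their normalized median difference from littermates 1 and 2 was 0.13 in littermate 3 (range -3.14 to 0.59) and 0.38, 0.30 and -0.07 in Cdr1as-/- mice 1, 2 and 3. In unscaled signal the median was 4.34 in littermate 3, while that of the let-7 guides was -0.01. With 6 arrays the largest genotype difference was in miR-125b-5p, at 8.06, 7.96 and 4.87 in littermates and 8.13, 8.65 and 6.69 in Cdr1as-/- mice, 0.86 ± 0.99 (SE) with 6 arrays and -0.19 ± 0.51 without littermate 3. The next was miR-99b-5p, at 3.71, 4.22 and 4.10 against 4.36, 4.61 and 3.90, with a difference of 0.28 ± 0.30. Without littermate 3 the largest, named after its value was seen, was that of miR-125a-5p, at -0.39 ± 0.32, and miR-125b-5p had the smallest of the 5. None of the 5 had an unadjusted limma p below 0.05 in either fit.

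Cell type markers moved in the same mice as let-7 in part. On the normalized scale, the median difference from littermates 1 and 2 of the 9 epithelial marker miRNAs was -3.08 in littermate 3 and -0.35, -0.07 and -0.06 in Cdr1as-/- mice 1, 2 and 3, and all 9 were below both littermates in littermate 3. The 6 immune markers were at -3.54, -0.58, 0.27 and -0.54 in the same order. These medians had the same signs as let-7 in all 4 mice, as did those of the endothelial markers given below. The 2 endothelial markers themselves went opposite ways in littermate 3, at -2.95 and 0.22. They also did so in Cdr1as-/- mouse 1, at -0.82 and 0.02. In littermate 3, 5 immune markers were below both littermates and 1 was above both. The 7 smooth muscle and mesenchyme markers were at -2.66, 0.23, 0.62 and -1.06. They did not move as 1, with ranges from -4.78 to 0.32 in littermate 3 and from -1.19 to 1.52 in Cdr1as-/- mouse 1. Of the remaining tested markers, the 2 erythroid ones were at -2.78, -1.39, -0.94 and -1.13, the 2 endothelial ones at -1.37, -0.40, 0.36 and -1.01, and the 2 neural ones at -1.03, -0.30, -0.07 and -0.38. In unscaled signal the epithelial markers were at -0.17, 0.09, -0.07 and -0.18, the let-7 guides at -0.01, 0.33, 0.19 and -0.54, and all tested miRNAs at 4.97, 1.73, 0.38 and 0.23. The part of cell composition in the let-7 levels was not tested.

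**Figure D5:**
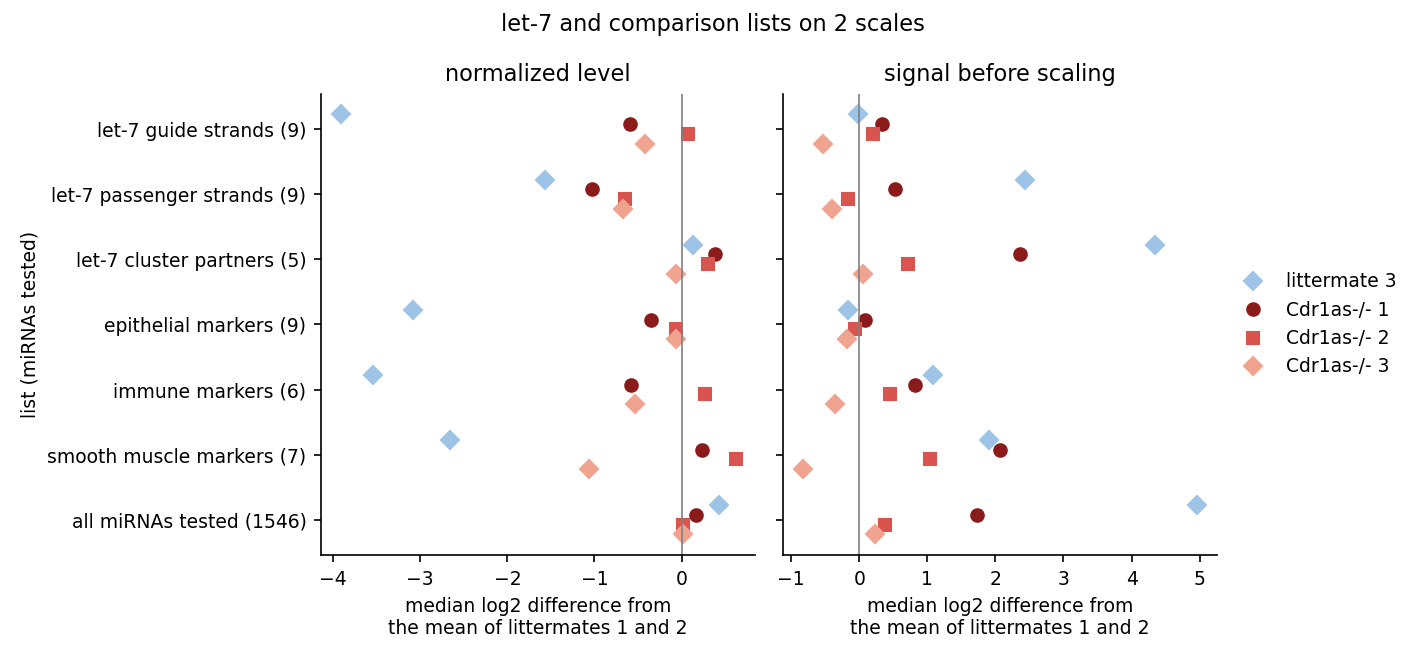
Median log2 difference from the mean of littermates 1 and 2 for the let-7 guide strands and comparison lists (number of miRNAs tested in brackets), on the deposited normalized scale (left) and before scaling (right), with 1 point per mouse. In littermate 3 the let-7 guides lay at -3.91 on the left and at -0.01 on the right, whereas all tested miRNAs lay at 0.43 and 4.97.

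The miRNAs with the profile most like the mean let-7 profile over the 6 mice, by the root mean square distance of mean-centred log2 levels, were miR-26b-5p (0.139), miR-200c-3p (0.140) and miR-19b-3p (0.146). The median distance of all miRNAs outside the family was 1.56, and that of the members themselves was 0.09 to 0.37. Each member is part of the mean it is compared with, so its closeness is in part built in. miR-26b-5p was at 10.63, 10.68 and 6.63 in littermates and 9.57, 10.62 and 9.96 in Cdr1as-/- mice, and miR-200c-3p, an epithelial marker, was at 12.27, 12.09 and 8.56 against 11.58, 12.12 and 11.85. Over the 5 mice other than littermate 3, the closest was miR-214-3p, a marker of mesenchyme, at a distance of 0.0355, where the median of all miRNAs outside the family was 0.416 and the members lay at 0.075 to 0.405. Its levels were 5.40 and 5.42 in littermates 1 and 2 against 4.80, 5.54 and 4.94 in Cdr1as-/- mice. In littermate 3 it was at 4.67, far nearer to littermates 1 and 2 than the members were.

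Within the family, profiles were compared over the 36 pairs. let-7d and let-7f, from the same cluster, were the closest over the 6 mice, with a distance of 0.0977, and let-7a and miR-98 were the farthest apart, at 0.523. Without littermate 3, let-7a and let-7f were the closest, at 0.0603, and let-7a and miR-98 again the farthest apart, at 0.551. Sequence likeness and profile likeness did not run in parallel in every pair. let-7a and let-7e differ by 1 base and had a distance of 0.383, or 0.241 without littermate 3. let-7d and let-7i differ by 6 bases and had a distance of 0.188, or 0.198 without littermate 3.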

How the data were processed

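Small RNAs of the small intestinal mucosa were measured on 6 single-colour arrays, 3 per genotype, grouped by title. Per the labels, 100 ng of total RNA per sample was labelled with Cy3 after dephosphorylation. The authors deposited scanner output (Agilent Feature Extraction 11.0.1.1) holding background-subtracted intensity per spot, not scaled between arrays, and a deposited table of normalized log2 values, whose normalization is not named in the sources used here. Each deposited log2 value was matched, within 1e-06, to its probes, whose unlogged intensities had been averaged before log2 was taken (8437 probes in all). Columns of the authors' own comparison (fold changes and p-values) were not used.

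The deposited log2 values went into lmFit and eBayes of limma 3.58.1 (R 4.3.3), and p-values were adjusted by the Benjamini-Hochberg method over 1546 miRNAs, those whose brightest probe the scanner called well above background in all mice of 1 or both genotypes. Standard errors and intervals come from this model. The code was tested on simulated data. Unscaled signal is the mean processed signal of a miRNA's probes. Exact permutation tests used SciPy 1.17.1, with Python 3.11.15, NumPy 2.4.6, pandas 2.3.3 and matplotlib 3.10.9. The number of arrays limits the precision. That each array held the RNA of a different mouse was taken from the sample titles, and p-values measure only the spread between these samples, which may in part be technical.

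The miRNAs named are the 9 members, the 2 with the largest changes in size in each comparison list (all 3 of the seed or name list), the 3 closest profiles over 6 mice and the 1 closest over the 5 mice other than littermate 3. The members, lists, and tests were chosen with earlier results of these data known. Alternatives covered the scanner values, their scaling and background correction (normexp, offset 50), the probe summary, the filter, the methods' t-test, an intensity trend, replicate and slide blocks, and each mouse left out in turn.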

Additional observations from a re-analysis of the deposited data

How the results depend on the processing

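With all 6 arrays, the median difference of the 9 members between Cdr1as-/- mice and littermates was 0.98 on the log2 scale, and it ranged from -0.32 to 1.63 when each mouse was left out in turn. No alternative gave a miRNA past the adjusted threshold in limma, and 0 members passed an unadjusted p of 0.05 except let-7f, 1 member, with 75th percentile scaling without littermate 3. Of 207 member values under 23 alternatives, 173 kept their direction and 34 turned, and 17 alternatives kept the direction of all 9. With all 6 arrays, the filters, the methods' t-test, the intensity trend and the replicate block leave each difference as it was, so their values could not turn. The family median turned only in alternatives without littermate 3. These counts therefore do not measure how firm the direction is. Without littermate 3 the median became -0.32, with let-7a at -0.17, let-7b at -0.32, let-7c at -0.20, let-7d at -0.27, let-7e at -0.46, let-7f at -0.25, let-7g at -0.34, let-7i at -0.40 and miR-98 at -0.92. The highest values with a mouse left out were 1.48 for let-7a, 1.67 for let-7b, 1.60 for let-7c, 1.69 for let-7d, 1.71 for let-7e, 1.63 for let-7f, 1.80 for let-7g, 1.72 for let-7i and 1.16 for miR-98. The methods' t-test without littermate 3, added after seeing the data, uses the same values, so its differences were those same 9 and its median again -0.32. With 75th percentile scaling and without littermate 3 the median was -0.95, with let-7a at -0.96, let-7b at -0.83, let-7c at -0.94, let-7d at -0.91, let-7e at -0.95, let-7f at -1.03, let-7g at -0.95, let-7i at -0.81 and miR-98 at -0.96. In unscaled signal, also added after seeing the data, miR-98 was at -0.18 with 6 arrays. Without littermate 3 the unscaled median was -0.0079, with let-7a at -0.0079, let-7d at -0.015, let-7f at -0.081, let-7g at -0.022 and miR-98 at -0.029. With the slide as a block, miR-98 was at -0.38. The cause of these turns was not tested.

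At an unadjusted p below 0.05, 6 miRNAs differed with 6 arrays, 209 without littermate 3, 186 with 75th percentile scaling without littermate 3, and 242 in unscaled signal without it, while the methods' t-test called 19, and 158 without littermate 3. The replicate number as a block left the median at 0.98, with unadjusted limma p of 0.258 to 0.666 for the members. The deviations of same-numbered mice from their group means correlated at -0.78, 0.59 and -0.24. Littermate 3 weighs on the littermate mean and so on each littermate's deviation. These values therefore cannot show whether the numbers pair the mice. With 3 mice per genotype and 1 array far from the rest, differences of the size seen here could not be told from the spread between mice.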
